A study of Mus musculus with 9 samples.

Results

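The 57 genes described here had their highest level in ears of Mdl-1-/- mice that had received interleukin 23 (IL-23) DNA. A protein-coding gene was taken when its mean in the 3 Mdl-1-/- libraries was at least 5 CPM, that is, 5 counts in every 1000000 of the library. That mean also had to be at least 1.5 times the mean of each wild-type group, and each Mdl-1-/- library had to lie above all 6 wild-type libraries. Mitochondrially encoded genes, ribosomal protein genes and gene models with a clone-type name were left out, so 19792 of the 54838 genes in the count tables were open to the choice. Of these, 8746 reached the level of 5 CPM and 57 met every condition, which is 0.652% of them. Non-overlap of the Mdl-1-/- libraries with the wild-type libraries in this direction was met by 154 of the 8746, or 1.76%. Because measured levels chose the genes, their Mdl-1-/- values are a description, and no test is given for them.

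The libraries were made by 3' tag RNA-seq, which counts reads near the end of each transcript, from ears of C57BL/6 mice aged 10 weeks. Mdl-1-/- mice, which by that label lack Mdl-1 (Clec5a), a receptor of myeloid cells, received 15 µg of minicircle DNA coding for IL-23 by hydrodynamic injection into the tail vein, a route that delivers DNA mainly to the liver. Wild-type mice received the same IL-23 DNA, and a further wild-type group received a minicircle with the GFP (green fluorescent protein) gene instead. Each of the 3 groups had 3 libraries, no group combined the Mdl-1-/- genotype with GFP DNA, and a difference of genotype present before IL-23 therefore cannot be told apart from a difference in the response to it. The labels do not say that each library came from its own animal, and the p-values given below therefore reflect differences among libraries that may be technical. The ear was sampled whole: markers of keratinocytes, fibroblasts, muscle, fat and sebaceous gland were counted in all 9 libraries. Among cartilage markers Acan had 4 to 211 counts and Col2a1 had 1 to 21 counts.

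Epidermal keratinocytes leave the basal layer, switch keratins and build a cornified envelope, a cross-linked protein shell beneath the membrane to which lipids are bound. Late in this course they express genes of the epidermal differentiation complex, desmosomal cadherins, tight junction proteins, lipoxygenases and protease inhibitors that control shedding. IL-23 sustains T cells that make IL-17 and IL-22, cytokines that alter keratinocyte growth and differentiation in inflamed skin.

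Library totals ran from 3776188 to 5605713 counts. The 57 genes together took 2.45%, 1.89% and 2.40% of the counts in the Mdl-1-/- IL-23 libraries, against 0.950%, 0.937% and 0.750% in wild-type IL-23 and 0.578%, 0.681% and 0.817% in wild-type GFP libraries. Krt10 alone made up 64.9% of the genes' summed Mdl-1-/- CPM. Without Krt10 the other 56 genes summed to 8062, 6707 and 8920 CPM in the Mdl-1-/- libraries, against 4372, 4638 and 4050 in wild-type IL-23 and 3259, 3466 and 3553 in wild-type GFP libraries. The Mdl-1-/- libraries were above all wild-type libraries in both sums, as the choice of genes requires, while the wild-type groups overlapped with Krt10 and not without it. Clec5a itself had 10, 13 and 5 counts in the libraries labelled Mdl-1-/- IL-23, against 17, 21 and 11 in wild-type IL-23 and 2, 7 and 10 in wild-type GFP libraries. The labels do not give the deleted part of the gene, and reads near the transcript end do not check it.

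The libraries of a group differed in ways that touch several of the 57 genes. The first Mdl-1-/- library had the lowest summed level of 45 interferon-stimulated genes of its group, with sums of 249, 1263 and 1369 CPM in Mdl-1-/- IL-23, against 313, 762 and 580 in wild-type IL-23 and 271, 297 and 268 in wild-type GFP. The sum over 27 neutrophil genes was 9194, 32968 and 19631 CPM in Mdl-1-/- IL-23, against 42315, 57598 and 82973 in wild-type IL-23 and 550, 608 and 415 in wild-type GFP. Mitochondrially encoded genes held 12.2% ± 0.78 of the counts in Mdl-1-/- IL-23, 8.85% ± 0.15 in wild-type IL-23 and 14.0% ± 1.31 in wild-type GFP libraries (SD, n = 3 each). The part of these differences in the levels below was not tested. Of the 57 genes, 25 were highest in the first Mdl-1-/- library, 2 in the second and 30 in the third, while 34 were lowest in the second.

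**Figure D1:**
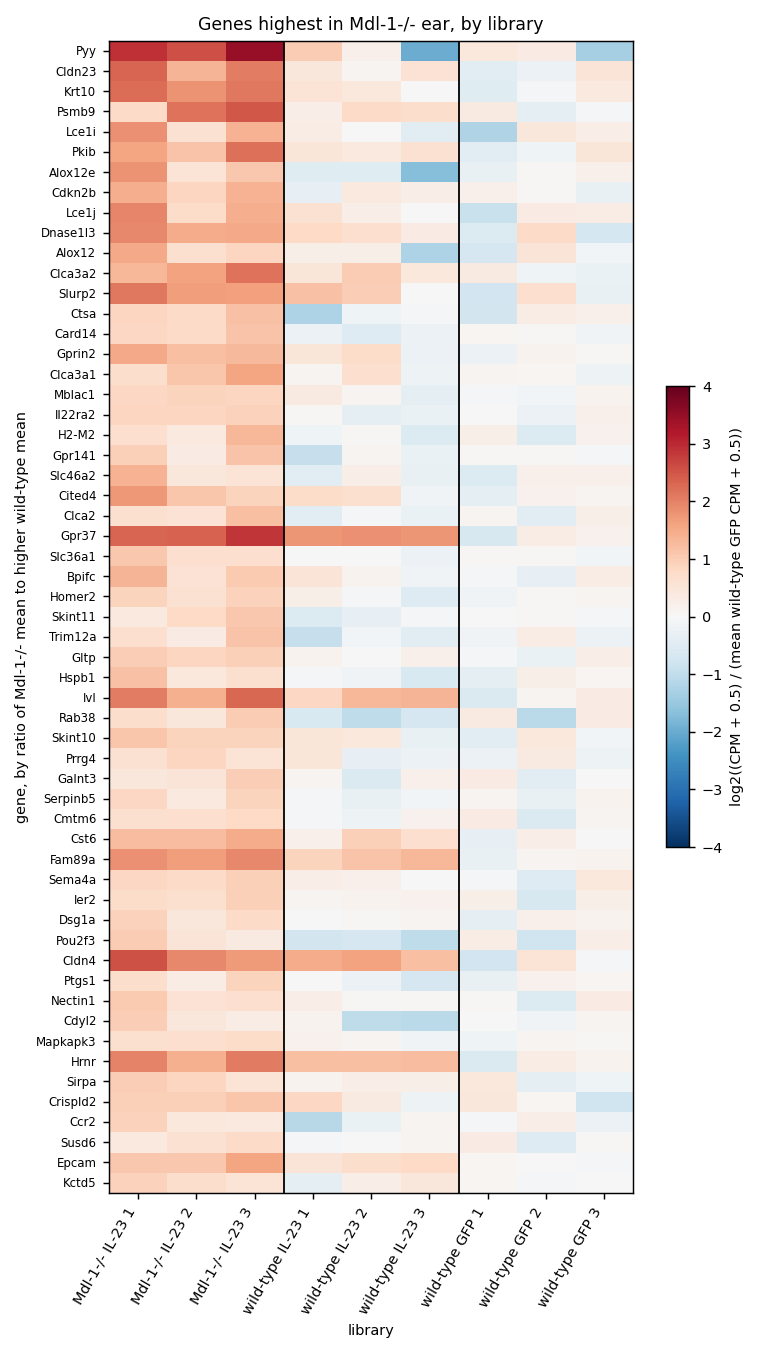
Level of each of the 57 genes (rows, from the largest to the smallest ratio of the Mdl-1-/- mean to the higher wild-type mean) in each of the 9 libraries (columns). Colour gives the log2 ratio of CPM to the wild-type GFP mean after adding 0.5 CPM to each, and the colour scale ends at 4 in both directions. The 3 Mdl-1-/- columns are the reddest in each row by the choice of genes, while the wild-type IL-23 columns run from below the GFP level (Pou2f3) to well above it (Gpr37).

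Promoter sequences are shown first for 5 genes of the cornified layers, because these genes carry most of the counts or sit side by side in one gene cluster. The bases are those of RefSeq on GRCm38.p6, 250 bases before the start site and 50 from it onward, printed 5′ to 3′ along the gene's strand, and position 0 is the start site. In Krt10 (chr11:99389315-99389614, minus strand) capitals mark a CCAAT box on the reverse strand at position -141 and a TATA box at position -26. In Hrnr (chr3:93319499-93319798, plus strand) they mark a TATA box at -31 and a CCAAT box at -12. In Ivl (chr3:92573686-92573985, minus strand) they mark an AP-1 motif at -116 and a TATA box at -29. In Lce1i (chr3:92778850-92779149, minus strand) and Lce1j (chr3:92790465-92790764, minus strand) they mark the longest run of bases that both windows share, 26 bases from position 24 onward.
Krt10: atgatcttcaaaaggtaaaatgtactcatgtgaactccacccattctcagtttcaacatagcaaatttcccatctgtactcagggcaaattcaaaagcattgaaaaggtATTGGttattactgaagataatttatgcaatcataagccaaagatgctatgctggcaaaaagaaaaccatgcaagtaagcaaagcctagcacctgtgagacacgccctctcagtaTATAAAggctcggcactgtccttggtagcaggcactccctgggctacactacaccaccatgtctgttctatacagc
Hrnr: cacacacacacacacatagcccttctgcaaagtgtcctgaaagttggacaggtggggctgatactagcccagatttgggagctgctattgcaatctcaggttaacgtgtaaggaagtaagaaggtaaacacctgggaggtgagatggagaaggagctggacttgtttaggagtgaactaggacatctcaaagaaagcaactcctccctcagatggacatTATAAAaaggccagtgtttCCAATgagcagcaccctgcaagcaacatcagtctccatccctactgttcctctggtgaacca
Ivl: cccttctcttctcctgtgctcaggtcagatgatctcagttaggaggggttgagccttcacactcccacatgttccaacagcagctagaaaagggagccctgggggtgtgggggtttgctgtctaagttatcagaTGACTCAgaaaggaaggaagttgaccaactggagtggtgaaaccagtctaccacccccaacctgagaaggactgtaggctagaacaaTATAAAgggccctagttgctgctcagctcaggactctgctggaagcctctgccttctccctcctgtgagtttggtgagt
Lce1i: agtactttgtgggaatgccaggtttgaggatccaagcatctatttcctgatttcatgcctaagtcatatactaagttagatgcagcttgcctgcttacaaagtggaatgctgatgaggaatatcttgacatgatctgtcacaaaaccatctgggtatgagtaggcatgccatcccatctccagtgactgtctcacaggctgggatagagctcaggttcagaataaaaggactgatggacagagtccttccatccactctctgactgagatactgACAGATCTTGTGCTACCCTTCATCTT
Lce1j: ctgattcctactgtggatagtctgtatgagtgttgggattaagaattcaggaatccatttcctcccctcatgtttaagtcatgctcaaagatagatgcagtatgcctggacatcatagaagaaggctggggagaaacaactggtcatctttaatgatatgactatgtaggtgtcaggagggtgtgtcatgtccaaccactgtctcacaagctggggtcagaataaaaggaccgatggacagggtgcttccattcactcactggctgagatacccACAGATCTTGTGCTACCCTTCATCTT

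A promoter window was found for 44 of the 57 genes, and 7 motifs were searched on both strands. The AP-1 motif (TGANTCA) stood in 6 of the 44 windows (13.6%), those of Bpifc, Clca3a2, Cldn4, Ivl, Serpinb5 and Skint11, against 7.93% of all 27025 windows. The TATA box (TATAAA) stood in 13.6% of the 44 windows and in 14.2% of all windows, and the CCAAT box (CCAAT) in 34.1% and 37.9%. The GC box (GGGCGG) stood in 50% of the 44 windows and in 35.9% of all windows, and the E-box (CACGTG) in 6.82% and 7.24%. The ISRE core, which interferon regulatory factors can bind, stood in 4 windows (9.09%), those of Clca3a1, Clca3a2, Skint11 and Trim12a, against 3.49% of all. The GAS element (TTCNNNGAA) stood in 4.55% of the 44 windows and in 8.47% of all. These shares are descriptions of letters in one window per gene, and no motif was tested for use.

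Among the structural genes of the upper epidermis, Krt10 had the highest level. Krt10 encodes the acidic keratin of the suprabasal layers, which pairs with keratin 1. Krt10 had 16435, 12187 and 15093 CPM in Mdl-1-/- IL-23, against 5131, 4731 and 3453 CPM in wild-type IL-23 and 2521, 3342 and 4619 CPM in wild-type GFP. The lowest Mdl-1-/- library was 2.38 times the highest wild-type library, and the wild-type groups overlapped. The mean was 3.28 times that of wild-type IL-23 and 4.17 times that of wild-type GFP.

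Hrnr, which encodes hornerin, a filaggrin-like repeat protein of the granular layer, had 1314, 902 and 1400 CPM in Mdl-1-/- IL-23, against 765, 766 and 792 CPM in wild-type IL-23 and 224, 410.3 and 366 CPM in wild-type GFP. Its 3 groups did not overlap one another. Ivl encodes involucrin, a cornified envelope precursor cross-linked by transglutaminases. Ivl had 62.5, 40.5 and 75.1 CPM in Mdl-1-/- IL-23, against 27.0, 38.3 and 38.9 CPM in wild-type IL-23 and 9.78, 16.2 and 18.7 CPM in wild-type GFP. Its groups were likewise ordered without overlap, but the second Mdl-1-/- library stood only 1.04 times above the highest wild-type IL-23 library.

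Dsg1a encodes a desmoglein 1, the desmosomal cadherin of the upper layers. Dsg1a had 1313, 941 and 1162 CPM in Mdl-1-/- IL-23, against 685, 707 and 742 CPM in wild-type IL-23 and 523, 783 and 756 CPM in wild-type GFP. Its 2 wild-type groups overlapped, unlike those of Hrnr and Ivl. The related Dsg1b and Dsg1c were not among the 57 genes. Dsg1b averaged 233 ± 9.42 CPM in Mdl-1-/- IL-23, 192 ± 31.6 in wild-type IL-23 and 124 ± 15.2 in wild-type GFP (SD, n = 3 each).

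Lce1i and Lce1j encode late cornified envelope proteins and lie 9.94 kb apart on chromosome 3 (GRCm38, GENCODE M21). Lce1i had 107, 46.2 and 79.6 CPM in Mdl-1-/- IL-23, against 37.0, 29.6 and 22.2 CPM in wild-type IL-23 and 12.8, 41.0 and 36.0 CPM in wild-type GFP. Lce1j had 181, 77.6 and 129 CPM in Mdl-1-/- IL-23, against 71.7, 56.7 and 46.6 CPM in wild-type IL-23 and 24.9, 58.4 and 56.9 CPM in wild-type GFP. In both genes the second Mdl-1-/- library was low, at 1.13 and 1.08 times the highest wild-type library, and the wild-type groups overlapped. Of the 50-base words in the last 300 bases of their transcripts, 14.7% in Lce1i and 20.5% in Lce1j also occur in other genes, mostly Lce1 genes, so their levels are uncertain.

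The other 12 Lce1 genes were looked at after the 57 were known. Only Lce1l of these 12 was called higher in Mdl-1-/- IL-23 than in wild-type IL-23, with 146, 57.5 and 110.2 CPM against 46.8, 26.9 and 26.2 CPM. The log2 fold change was 1.49 ± 0.40 (SE) with an edgeR adjusted p of 0.0379, which ranged from 0.000206 to 0.143 over the alternatives. The call was lost with the replicate block and without any one of Mdl-1-/- replicates 1 and 3, wild-type IL-23 replicates 2 and 3 and GFP replicate 2. Lce1l had 38.1, 79.4 and 78.7 CPM in wild-type GFP, so the Mdl-1-/- range overlapped that of GFP. Lce1a1, the Lce1 gene with the highest counts, had 876, 429 and 541 CPM in Mdl-1-/- IL-23, against 626, 576 and 523 CPM in wild-type IL-23 and 161, 528 and 364 CPM in wild-type GFP, with overlap between all groups.

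A list of 48 genes of suprabasal and cornifying epidermis holds 4 of the 57 genes: Krt10, Hrnr, Ivl and Dsg1a. In Mdl-1-/- IL-23 against wild-type IL-23, where 7.58% of 13807 tested genes were called higher and 10.1% lower at an adjusted p under 0.05, 5 of the 48 were called higher and 4 lower. The 5 were Krt10 and Dsg1a, whose calls the choice of genes fixes in part, and Sbsn, Scel and Skint5. The 4 were Casp14, Tgm3, Cers3 and Nipal4, genes of filaggrin processing, envelope cross-linking and barrier lipids; Nipal4 lost its call in 9 of the alternatives. The median log2 fold change was 0.10 over the list and 0.00 over all tested genes. Relative to wild-type GFP, where 10.2% of tested genes were called higher and 6.93% lower, 31 of the 48 were called higher and 0 lower by edgeR (0 also at an unadjusted p under 0.05 and by DESeq2), with a median of 1.48 against -0.02 over all tested genes. No gene of the list outside the 57 was called higher in both comparisons. Wild-type IL-23 against wild-type GFP likewise had 31 of the 48 called higher, with 4 lower and a median of 1.27. Of all tested genes, 22.9% were called higher and 21.7% lower there. The rise of the list above GFP was therefore not particular to the Mdl-1-/- libraries.

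The summed level of the list showed the same split. All 48 genes summed to 43181, 31015 and 37536 CPM in Mdl-1-/- IL-23, against 24524, 23194 and 20992 CPM in wild-type IL-23 and 9707, 16634 and 15965 CPM in wild-type GFP. Without the 4 genes that belong to the 57, the sums were 24057, 16945 and 19805 CPM in Mdl-1-/- IL-23, against 17916, 16953 and 15966 CPM in wild-type IL-23 and 6429, 12082 and 10205 CPM in wild-type GFP. The Mdl-1-/- and wild-type IL-23 libraries then overlapped, while both stayed above GFP. In bulk tissue, more cells of a layer and more RNA per cell cannot be told apart.

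Krt1, the partner of keratin 10 (chosen after its values were seen), had 703, 1475 and 1003 CPM in Mdl-1-/- IL-23, against 1655, 1626 and 1527 CPM in wild-type IL-23 and 60.3, 104 and 115 CPM in wild-type GFP. Each Mdl-1-/- library was below each wild-type IL-23 library, which is the reverse order to Krt10. The log2 fold change of Krt1 between Mdl-1-/- and wild-type IL-23 was -0.74 ± 0.30 (SE) and was not called (edgeR adjusted p = 0.125, 0.0117 to 0.29 over the alternatives). Against wild-type GFP, Krt1 was called higher in Mdl-1-/- IL-23, with a log2 fold change of 3.77 ± 0.34 (adjusted p = 0.000147).

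**Figure D2:**
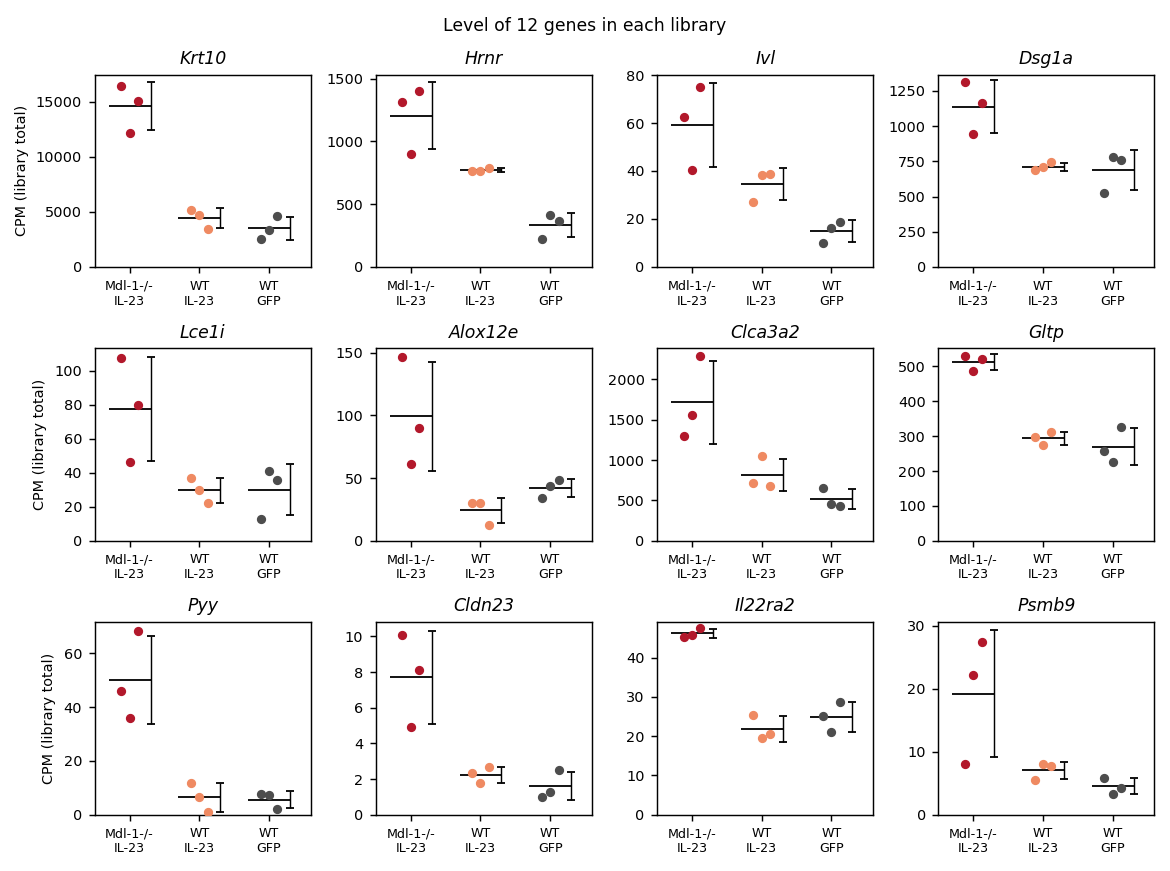
CPM of 12 of the 57 genes in each library (points) for Mdl-1-/- IL-23, wild-type IL-23 and wild-type GFP, with the group mean (line) and SD (bar), n = 3 each; each panel has its own linear axis from 0. Hrnr and Ivl are highest in Mdl-1-/- IL-23, next in wild-type IL-23 and lowest in GFP, whereas the wild-type groups of Dsg1a, Lce1i, Pyy, Il22ra2 and Psmb9 overlap; the lowest Mdl-1-/- point of Psmb9 is at 8.06 CPM.

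Of the lipid and eicosanoid genes, Alox12e differed most in ratio. Alox12e encodes the epidermal 12-lipoxygenase of the mouse and Alox12 the platelet-type 12-lipoxygenase, and they lie 60.3 kb apart on chromosome 11 with no other protein-coding gene between them. Alox12e had 147, 61.2 and 89.9 CPM in Mdl-1-/- IL-23, against 29.8, 30.2 and 12.7 CPM in wild-type IL-23 and 34.2, 43.5 and 48.5 CPM in wild-type GFP. Alox12 had 29.3, 15.8 and 18.7 CPM in Mdl-1-/- IL-23, against 11.7, 11.8 and 3.97 CPM in wild-type IL-23 and 6.11, 14.5 and 9.28 CPM in wild-type GFP. Both were highest in the first and lowest in the second Mdl-1-/- library. The wild-type groups of Alox12e did not overlap, with IL-23 below GFP, while those of Alox12 did.

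The barrier lipoxygenases Alox12b and Aloxe3, which act in sequence on ceramide-bound linoleate, did not follow them. Alox12b had 41.6, 32.6 and 33.2 CPM in Mdl-1-/- IL-23, against 51.5, 47.1 and 44.2 CPM in wild-type IL-23 and 5.71, 12 and 6.60 CPM in wild-type GFP. Each Mdl-1-/- library was below each wild-type IL-23 library and above each GFP library. The adjusted p between the IL-23 groups was 0.0604 for Alox12b (0.0168 to 0.187 over the alternatives) and 0.634 for Aloxe3 (0.408 to 0.968).

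Ptgs1 encodes cyclooxygenase 1, the constitutive enzyme of prostaglandin synthesis. Ptgs1 had 180.4, 134 and 206 CPM in Mdl-1-/- IL-23, against 111, 92.8 and 69.1 CPM in wild-type IL-23 and 89.3, 123 and 117 CPM in wild-type GFP. The inducible Ptgs2 and the prostaglandin E synthase Ptges (both chosen after their values were seen) were instead called lower in Mdl-1-/- IL-23 than in wild-type IL-23. Ptgs2 averaged 5.72 CPM in Mdl-1-/- IL-23, 13.5 CPM in wild-type IL-23 and 3.48 CPM in wild-type GFP, with a log2 fold change of -1.39 ± 0.34 (SE) between the IL-23 groups (edgeR adjusted p = 0.0118). Ptges averaged 82.4 CPM in Mdl-1-/- IL-23, 119 CPM in wild-type IL-23 and 28.0 CPM in wild-type GFP, with a log2 fold change of -0.69 ± 0.18 (edgeR adjusted p = 0.0166). Neither was called without Mdl-1-/- replicate 3 (adjusted p = 0.0549 for Ptgs2 and 0.057 for Ptges) or without wild-type IL-23 replicate 3 (0.0641 and 0.0611), and Ptges was also lost without Mdl-1-/- replicate 1 (0.0755) or wild-type IL-23 replicate 2 (0.0543).

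Gltp encodes the glycolipid transfer protein, which carries glucosylceramide between membranes. Gltp had 531, 486 and 521 CPM in Mdl-1-/- IL-23, against 297, 274 and 312 CPM in wild-type IL-23 and 258, 225 and 328 CPM in wild-type GFP. Its Mdl-1-/- libraries were close together, with an SD of 23.3 CPM on a mean of 513. Bpifc, of the family of lipid-binding bactericidal permeability-increasing proteins, averaged 173 ± 45.5 CPM in Mdl-1-/- IL-23, 97.6 ± 22 in wild-type IL-23 and 85.2 ± 18.9 in wild-type GFP (SD, n = 3 each).

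The set held 3 calcium-activated chloride channel regulators that lie in 1 cluster on chromosome 3. Clca3a2 had 1303, 1559 and 2290 CPM in Mdl-1-/- IL-23, against 722, 1049 and 681 CPM in wild-type IL-23 and 655, 456 and 428 CPM in wild-type GFP. Clca3a1 had 63.4, 84.8 and 115 CPM in Mdl-1-/- IL-23, against 41.5, 61.8 and 33.4 CPM in wild-type IL-23 and 41.6, 41.0 and 33.5 CPM in wild-type GFP. Clca2 had 79.3, 75.4 and 118 CPM in Mdl-1-/- IL-23, against 37.9, 47.5 and 41.6 CPM in wild-type IL-23 and 54.4, 37.6 and 59.4 CPM in wild-type GFP. All 3 were highest in the third Mdl-1-/- library, and only Clca3a2 had wild-type groups that did not overlap. Clca3a1 and Clca3a2 lie 35.6 kb apart. Of their 50-base words near the transcript end, 17.5% in Clca3a1 and 11.2% in Clca3a2 also occur in other genes. These other genes include each other, Clca3b for Clca3a2, and many genes outside the family for Clca3a1. The part shared between Clca3a1 and Clca3a2 alone was not counted, and the levels of both are uncertain. Their neighbour Clca1, which was not among the 57 genes, averaged 13.2 ± 2.45 CPM in Mdl-1-/- IL-23, 7.53 ± 2.66 in wild-type IL-23 and 1.52 ± 0.332 in wild-type GFP (SD, n = 3 each), with overlap between the IL-23 groups.

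Skint genes encode immunoglobulin-like membrane proteins of mouse keratinocytes and thymic epithelium, and Skint1 is needed in the mouse for the gamma delta T cells that settle in the epidermis. Skint10 had 40.3, 34.9 and 34.9 CPM in Mdl-1-/- IL-23, against 26.4, 25.1 and 15.1 CPM in wild-type IL-23 and 13.4, 24.8 and 17.3 CPM in wild-type GFP. Skint11 had 20.4, 27.1 and 33.0 CPM in Mdl-1-/- IL-23, against 10.2, 12 and 14.8 CPM in wild-type IL-23 and 15.1, 16.0 and 14.8 CPM in wild-type GFP. For both genes the 2 wild-type groups overlapped.

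Of the 9 other Skint genes, looked at after the 57 were known, 5 were called higher in Mdl-1-/- IL-23 than in wild-type IL-23. Of all tested genes 7.58% were called higher in this comparison, and Skint8, among the 9, was too low to be tested. Skint9 had 93.8, 58.6 and 117 CPM in Mdl-1-/- IL-23, against 27.4, 32.4 and 18.0 CPM in wild-type IL-23 and 53.2, 60.1 and 71.0 CPM in wild-type GFP. Its log2 fold change was 1.62 ± 0.23 (SE) against wild-type IL-23 (edgeR adjusted p = 0.00107) and 0.78 ± 0.22 against wild-type GFP (adjusted p = 0.0218, 0.000106 to 0.121 over the alternatives). The second Mdl-1-/- library of Skint9 lay below 2 GFP libraries, and its mean was under 1.5 times the GFP mean. Its call against GFP was lost on library totals and without Mdl-1-/- replicate 3 (adjusted p = 0.093) or GFP replicate 1 (0.0714). Skint1 was also called higher in both comparisons, by 0.60 ± 0.20 and 0.70 ± 0.19 on the log2 scale (edgeR adjusted p = 0.0458 and 0.0193, up to 0.142 and 0.105 over the alternatives). Its call against wild-type IL-23 was lost by DESeq2 and without any one of the 3 Mdl-1-/- libraries or wild-type IL-23 replicates 1 and 3. The call of Skint1 against GFP was lost on library totals and without Mdl-1-/- replicate 2 or 3. Skint4, Skint5 and Skint7 were called higher against wild-type IL-23 alone, and their levels in wild-type IL-23 were below those in wild-type GFP. The calls of Skint5 and Skint7 were lost without any one of several libraries, Mdl-1-/- replicates 1 and 3 and wild-type IL-23 replicates 2 and 3 among them, while that of Skint4 was kept. Skint4 had 36.3, 16.2 and 24.4 CPM in Mdl-1-/- IL-23, against 8.51, 9.03 and 5.56 CPM in wild-type IL-23 and 23.6, 24.8 and 24.6 CPM in wild-type GFP.

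**Figure D3:**
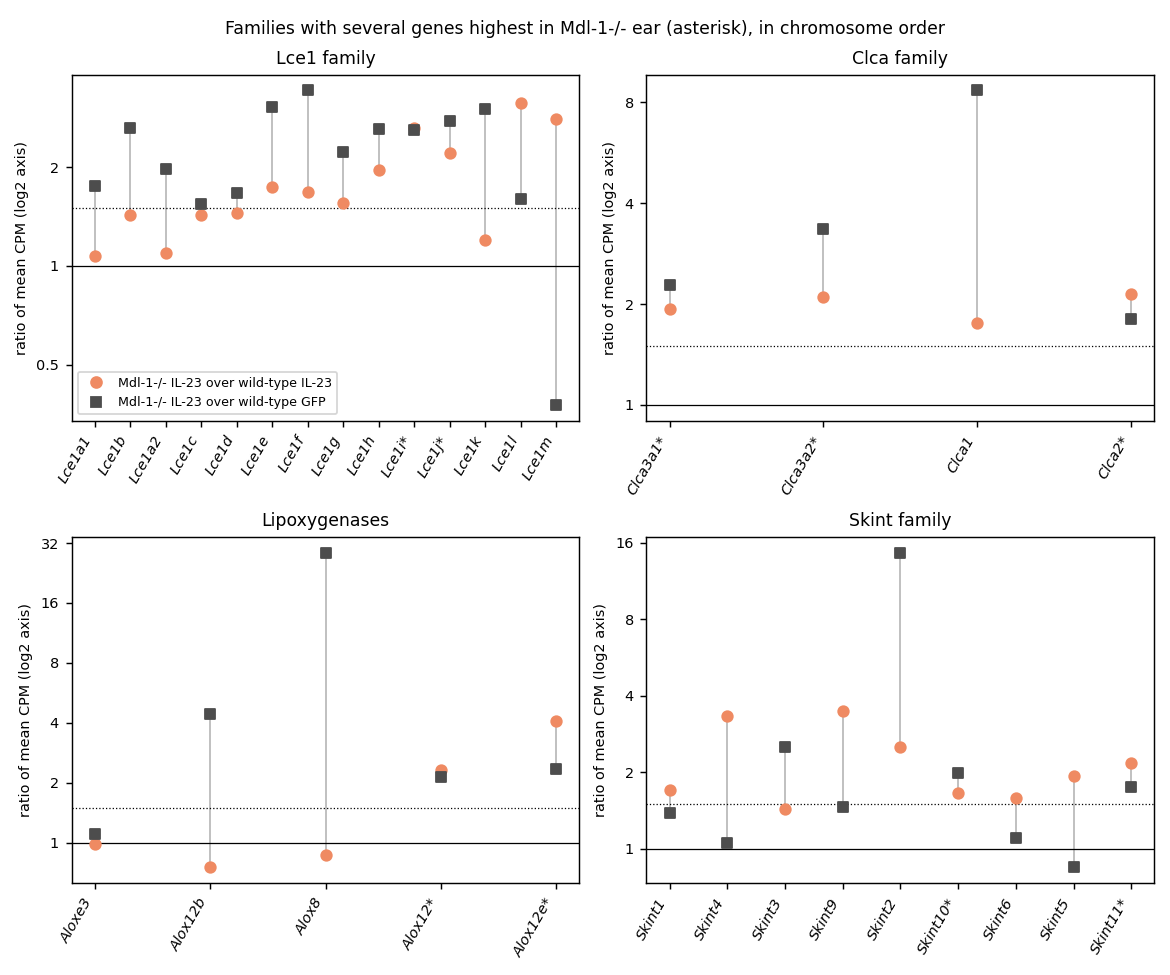
Ratio of the Mdl-1-/- IL-23 mean CPM to the wild-type IL-23 mean (circles) and to the wild-type GFP mean (squares) for genes of the Lce1, Clca, lipoxygenase and Skint families with a mean of at least 5 CPM in Mdl-1-/- IL-23, in chromosome order, on a log2 axis; an asterisk marks genes among the 57 and the dotted line is a ratio of 1.5. Only genes with an asterisk have both marks at or above the dotted line together with libraries that do not overlap.

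The junction genes among the 57 were Cldn4, Cldn23, Nectin1 and Epcam. Cldn23, a claudin of the upper epidermis, had 10.1, 4.90 and 8.13 CPM in Mdl-1-/- IL-23, against 2.34, 1.77 and 2.65 CPM in wild-type IL-23 and 1.02, 1.26 and 2.50 CPM in wild-type GFP. Cldn4, a claudin of granular-layer tight junctions, had 52.4, 33.9 and 28.9 CPM in Mdl-1-/- IL-23, against 25.1, 27.1 and 20.4 CPM in wild-type IL-23 and 4.89, 12.6 and 8.21 CPM in wild-type GFP. The groups of Cldn4 were ordered without overlap, whereas the wild-type groups of Cldn23 overlapped at a few counts per library.

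Epcam, an adhesion molecule of epithelia and of Langerhans cells, had 89.8, 90.1 and 128 CPM in Mdl-1-/- IL-23, against 60.2, 68.7 and 74.4 CPM in wild-type IL-23 and 45.0, 41.6 and 40.0 CPM in wild-type GFP. Its 3 groups did not overlap one another. The Langerhans marker Cd207 had 11.4, 2.13 and 9.80 CPM in the same Mdl-1-/- libraries, against 2.34, 4.71 and 3.97 CPM in wild-type IL-23 and 2.45, 1.47 and 2.85 CPM in wild-type GFP. The second Mdl-1-/- library was thus low in Cd207 but level with the first in Epcam. Of 11 tested genes on a list for Langerhans and dendritic cells, 1 was called higher and 2 lower in Mdl-1-/- than in wild-type IL-23. Over all tested genes, 7.58% were called higher and 10.1% lower. The median log2 fold change of this list was -0.19, against 0.00 over all tested genes. Nectin1, which joins nectins of neighbouring cells, averaged 25.8 ± 4.64 CPM in Mdl-1-/- IL-23, 16.3 ± 1.53 in wild-type IL-23 and 14.8 ± 4.45 in wild-type GFP (SD, n = 3 each).

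Cldn1, the main claudin of the epidermal barrier, was not among the 57 genes and was examined after they were known. Cldn1 had 215, 192 and 213 CPM in Mdl-1-/- IL-23, against 102, 112 and 107 CPM in wild-type IL-23 and 161, 121 and 155 CPM in wild-type GFP. It lay above all wild-type libraries, but its mean was under 1.5 times that of GFP. Its log2 fold change was 0.78 ± 0.14 (SE) against wild-type IL-23 and 0.74 ± 0.14 against wild-type GFP (edgeR adjusted p = 0.00262 and 0.00187). Tight junction genes outside the claudins, also examined after the 57 were known, went both ways against wild-type IL-23. F11r was called lower, with a log2 fold change of -0.66 ± 0.14 (SE, edgeR adjusted p = 0.00534). Cgn was called higher, with a log2 fold change of 1.87 ± 0.31 (edgeR adjusted p = 0.00303).

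The protease and inhibitor genes were Cst6, Serpinb5 and Ctsa. Cst6, cystatin M/E, an inhibitor of cathepsins and legumain needed for a normal barrier in the mouse, had 110.4, 110.2 and 132 CPM in Mdl-1-/- IL-23, against 53.2, 89.5 and 73.4 CPM in wild-type IL-23 and 36.7, 55.3 and 47.1 CPM in wild-type GFP. Serpinb5, which encodes maspin, had 279.9, 207 and 292 CPM in Mdl-1-/- IL-23, against 150.2, 129 and 146 CPM in wild-type IL-23 and 170.2, 129 and 174 CPM in wild-type GFP. In Cst6 a single wild-type IL-23 library reached into the GFP range, and in Serpinb5 the wild-type groups lay together. Ctsa, the lysosomal cathepsin A, averaged 9.50 ± 1.54 CPM in Mdl-1-/- IL-23, 3.44 ± 1.52 in wild-type IL-23 and 4.69 ± 1.77 in wild-type GFP (SD, n = 3 each).

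Psmb9 and Il22ra2 were the genes of the immune group with the clearest known roles. Il22ra2 encodes the soluble IL-22 binding protein, a decoy receptor. Il22ra2 had 45.2, 45.8 and 47.6 CPM in Mdl-1-/- IL-23, against 25.5, 19.4 and 20.7 CPM in wild-type IL-23 and 25.1, 21.0 and 28.7 CPM in wild-type GFP. The Mdl-1-/- libraries had an SD of 1.23 CPM, and the wild-type groups overlapped. Il10rb, a chain of the signalling IL-22 receptor (chosen after its values were seen), averaged 44.6 CPM in Mdl-1-/- IL-23, 66.2 CPM in wild-type IL-23 and 27.7 CPM in wild-type GFP. Il10rb was called lower against wild-type IL-23, with a log2 fold change of -0.74 ± 0.22 (SE, edgeR adjusted p = 0.0302), and higher against GFP. The lower call was lost on library totals (adjusted p = 0.0593) and without any one of Mdl-1-/- replicates 1 and 3 and wild-type IL-23 replicates 2 and 3 (0.0979 to 0.143).

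Psmb9 encodes an interferon-inducible subunit of the immunoproteasome. Psmb9 had 8.06, 22.2 and 27.5 CPM in Mdl-1-/- IL-23, against 5.53, 8.04 and 7.68 CPM in wild-type IL-23 and 5.91, 3.36 and 4.28 CPM in wild-type GFP. The first Mdl-1-/- library was level with the highest wild-type IL-23 library and was also the one with the low interferon sum. Tap1, which held 2053 counts over the 9 libraries against 420 for Psmb9, overlaps it on the opposite strand. The overlap, chr17:34187553-34187764, is where both genes start, whereas these libraries count reads near transcript ends. The strand setting of the counting is not given, and the positions of the reads were not examined. Tap1 averaged 67.4 CPM in Mdl-1-/- IL-23, 56.7 CPM in wild-type IL-23 and 23.7 CPM in wild-type GFP. Of 33 tested interferon-stimulated genes, 0 were called higher by edgeR against wild-type IL-23 with all libraries, where 7.58% of all tested genes were. At an unadjusted p under 0.05 there was 1, Xaf1, and by DESeq2 there were 0. Without the first Mdl-1-/- library 10 were called by edgeR. The share of all tested genes called higher in that fit was not worked out, so nothing is read from the 10.

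Slurp2, a secreted Ly6 protein of keratinocytes, had 68.3, 50.5 and 49.5 CPM in Mdl-1-/- IL-23, against 35.5, 31.0 and 15.6 CPM in wild-type IL-23 and 8.97, 25 and 12.7 CPM in wild-type GFP. Card14, a keratinocyte scaffold that activates NF-kappaB with Bcl10 and Malt1, had 7.16, 6.82 and 9.09 CPM in Mdl-1-/- IL-23, against 3.19, 2.55 and 3.18 CPM in wild-type IL-23 and 4.08, 3.99 and 3.39 CPM in wild-type GFP. Card14 overlaps Sgsh on the opposite strand, and its level is uncertain because the strand setting of the counting is not given. Ccr2, the chemokine receptor of inflammatory monocytes, had 32.0, 22.6 and 22 CPM in Mdl-1-/- IL-23, against 7.45, 13.7 and 18.0 CPM in wild-type IL-23 and 15.9, 20.2 and 14.3 CPM in wild-type GFP. Ccr2 stood only 1.09 times above the highest wild-type library. The sums over 34 monocyte and macrophage genes in Mdl-1-/- IL-23 overlapped those of each wild-type group, and all wild-type IL-23 sums were below all GFP sums, at 2483, 1787 and 1959 CPM in Mdl-1-/- IL-23, against 1984, 1838 and 1483 CPM in wild-type IL-23 and 2431, 3035 and 2527 CPM in wild-type GFP.

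Dnase1l3 encodes a secreted DNase made by macrophages and dendritic cells. Dnase1l3 had 13.7, 10.0 and 10.3 CPM in Mdl-1-/- IL-23, against 5.96, 5.49 and 4.24 CPM in wild-type IL-23 and 2.04, 5.88 and 1.78 CPM in wild-type GFP. The other immune-related genes of the set were the class I-like H2-M2, Sirpa (a myeloid receptor for Cd47), Gpr141, Trim12a, Sema4a and Cmtm6. Their Mdl-1-/- means lay between 7.89 CPM (Trim12a) and 173 CPM (Cmtm6), and their ratios to the higher wild-type mean between 1.55 (Sirpa) and 1.85 (H2-M2).

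Pyy had the largest ratio of all 57 genes. Pyy encodes peptide YY, a hormone known from endocrine cells of the gut. Pyy had 45.9, 36.0 and 68.2 CPM in Mdl-1-/- IL-23, against 11.9, 6.48 and 1.06 CPM in wild-type IL-23 and 7.74, 7.14 and 1.96 CPM in wild-type GFP. Every Mdl-1-/- library was at least 3.02 times the highest wild-type library, the widest gap of the set, and the GFP libraries lay within the range of wild-type IL-23. The mean was 7.72 times that of wild-type IL-23 and 8.91 times that of wild-type GFP.

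Among regulators, Cdkn2b encodes p15, an inhibitor of cyclin-dependent kinases. Cdkn2b had 10.7, 7.03 and 10.3 CPM in Mdl-1-/- IL-23, against 2.77, 4.91 and 4.50 CPM in wild-type IL-23 and 4.28, 3.78 and 2.85 CPM in wild-type GFP. Pkib, an inhibitor of cyclic AMP-dependent protein kinase, had 8.28, 5.97 and 12.9 CPM in Mdl-1-/- IL-23, against 3.62, 3.34 and 3.97 CPM in wild-type IL-23 and 1.63, 2.10 and 3.57 CPM in wild-type GFP. Both were low genes whose wild-type groups overlapped. Gpr37, an orphan receptor, had 4.93, 5.11 and 7.41 CPM in Mdl-1-/- IL-23, against 3.19, 3.34 and 3.18 CPM in wild-type IL-23 and 0.204, 0.84 and 0.714 CPM in wild-type GFP, without overlap between any groups. Hspb1, a small heat shock protein of keratinocytes, averaged 159.6 ± 46.1 CPM in Mdl-1-/- IL-23, 77.7 ± 15.2 in wild-type IL-23 and 92.7 ± 20.3 in wild-type GFP (SD, n = 3 each), and 19.0% of its 50-base words near the transcript end also occur in the pseudogene Hsp25-ps1. Ier2, an immediate early gene, averaged 11.6 ± 1.40 CPM in Mdl-1-/- IL-23, 7.23 ± 0.199 in wild-type IL-23 and 6.53 ± 2.20 in wild-type GFP (SD, n = 3 each).

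Gprin2, which interacts with G protein subunits, had 323, 260.2 and 277 CPM in Mdl-1-/- IL-23, against 158, 189 and 94.5 CPM in wild-type IL-23 and 95.6, 125 and 117 CPM in wild-type GFP. Crispld2, a secreted cysteine-rich protein, had 300.4, 297 and 330.0 CPM in Mdl-1-/- IL-23, against 274, 198 and 135 CPM in wild-type IL-23 and 211, 163 and 88.3 CPM in wild-type GFP. The first wild-type IL-23 library of Crispld2 was within 1.08 times of the Mdl-1-/- range. Fam89a had 70.5, 62.9 and 75.3 CPM in Mdl-1-/- IL-23, against 36.6, 43.0 and 49.8 CPM in wild-type IL-23 and 15.7, 20.8 and 21.6 CPM in wild-type GFP, and its groups did not overlap.

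The remaining genes are named to account for the set. They were the transcription regulators Pou2f3, which acts in keratinocyte differentiation, Cited4 and Cdyl2, the kinase Mapkapk3, the scaffold Homer2, the ubiquitin ligase adaptor Kctd5, Susd6, and the small GTPase Rab38 of melanosome transport. With them came the amino acid transporter Slc36a1, Slc46a2, the glycosyltransferase Galnt3, Mblac1 and Prrg4. Their Mdl-1-/- means lay between 5.02 CPM (Mblac1) and 79.0 CPM (Homer2), with ratios to the higher wild-type mean from 1.505 (Kctd5) to 1.88 (Mblac1). Rab38 and Pou2f3 were lower in the wild-type IL-23 mean than in the GFP mean, at 26.0 against 44.3 CPM and 8.73 against 15.5 CPM, and neither difference was called by edgeR (adjusted p = 0.382 and 0.231).

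The set as a whole was made of modest differences. The median ratio of the Mdl-1-/- mean to the higher wild-type mean was 1.75, and 15 of the 57 genes reached a ratio of 2. In 28 genes the lowest Mdl-1-/- library was under 1.2 times the highest wild-type library. A mean of at least 100 CPM in Mdl-1-/- IL-23 was found for 15 genes, and 11 were under 10 CPM. The genes just inside the fold of 1.5 were Kctd5 (ratio 1.505), Epcam (1.514) and Susd6 (1.520). Just outside were Gnai3 with a ratio of 1.499, Ocln with 1.486 and Gjb5 with 1.484, which met the other conditions.

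No condition of the choice set wild-type IL-23 against wild-type GFP. The choice did use the levels of both groups, on library totals, and held both below the Mdl-1-/- libraries. It also required the IL-23-treated Mdl-1-/- mean to exceed the GFP mean. A gene that IL-23 lowers alike in both genotypes, from the same starting level, could therefore not enter. The choice can thus favour genes higher in wild-type IL-23, by an amount that was not worked out. The counts and medians from this comparison are therefore a description and not an independent test. The comparison asks whether genes that were highest without Mdl-1 also responded to IL-23 in its presence. All 57 genes passed the filter on low counts. With edgeR, 21 of the 57 (36.8%) were called higher in wild-type IL-23, where 22.9% of all 13807 tested genes were, and 0 were called lower, where 21.7% of all tested genes were. At an unadjusted p under 0.05 and by DESeq2, 0 were lower as well. Leaving out wild-type IL-23 replicate 2 left 12 genes called higher (21.1%, against 18.7% of all tested genes), and leaving out GFP replicate 2 gave 2 called lower. The median log2 fold change was 0.53 over the 57 genes and -0.04 over all tested genes. The other 36 genes were not called, which does not show that they were level between the wild-type groups.

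These counts depend on how libraries are scaled. The genes were chosen on library totals, while edgeR scales by trimmed mean of M-values (TMM), which moved the median of all genes in this comparison by 0.40 (log2) relative to totals. On library totals, 8 of the 57 (14.0%) were called higher, near the 11.8% of all tested genes, and 1, Pou2f3, lower (1.75%), where 39.9% of all tested genes were. With upper-quartile scaling 12 (21.1%) were called higher, where 17.9% of all tested genes were. The share of the 57 called higher thus stood well above that of all genes with TMM and all libraries, and near it on these 2 scalings. With TMM it also came nearer without wild-type IL-23 replicate 2 (21.1%, against 18.7%) or replicate 1 (26.3%, against 21.3%). On library totals, the median was 0.12 over the 57 genes against -0.44 over all genes. Of all called genes, 51.3% were higher with TMM, 38.9% with upper-quartile scaling and 22.8% on library totals. The median of the 57 was above that of all tested genes on both scales. Rescaling moves every gene by about the same amount, so the second scale is not a separate observation. The choice of genes can favour this direction on either scale.

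Of the 21 genes, 8 were called under all 15 alternatives. Gpr37 was higher in wild-type IL-23 than in wild-type GFP by a log2 fold change of 2.80 ± 0.49 (SE, edgeR adjusted p = 0.000285), Cldn4 by 1.90 ± 0.29 (adjusted p = 0.000169) and Ivl by 1.62 ± 0.27 (adjusted p = 0.00039). The size for Gpr37 is uncertain, because it rests on 15, 17 and 12 counts in wild-type IL-23 against 1, 4 and 4 in wild-type GFP. Hrnr was higher by 1.62 ± 0.21 (edgeR adjusted p = 5.41e-05) and Fam89a by 1.56 ± 0.19 (adjusted p = 1.33e-05). The other 3 were Epcam at 1.09 ± 0.17, Clca3a2 at 1.07 ± 0.23 and Cst6 at 1.04 ± 0.20. In CPM, every wild-type IL-23 library was above every GFP library in 7 of the 57 genes (12.3%), where 14.2% of all tested genes were so ordered, and the 7 are these genes without Cst6. The reverse order was found in 2 (Card14 and Alox12e), or 3.51%, where 46.4% of all tested genes had it.

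Krt10 was called higher by 0.74 ± 0.19 (SE) on the log2 scale in wild-type IL-23 than in wild-type GFP with TMM (adjusted p = 0.00649), but by 0.35 on library totals, where it was not called (adjusted p = 0.204). Slurp2, the sixth in size at 1.21 ± 0.36 (adjusted p = 0.0188), was not called on library totals or without any one of 3 wild-type libraries (wild-type IL-23 replicates 1 and 2 and GFP replicate 3). The remaining 11 called genes had log2 fold changes of 0.45 (Mapkapk3) to 1.11 (Dnase1l3), and none of the 11 was called on library totals. The largest fall was that of Pou2f3 at -0.43 ± 0.28 (adjusted p = 0.231), followed by Alox12e at -0.40 ± 0.34 (adjusted p = 0.364).

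**Figure D4:**
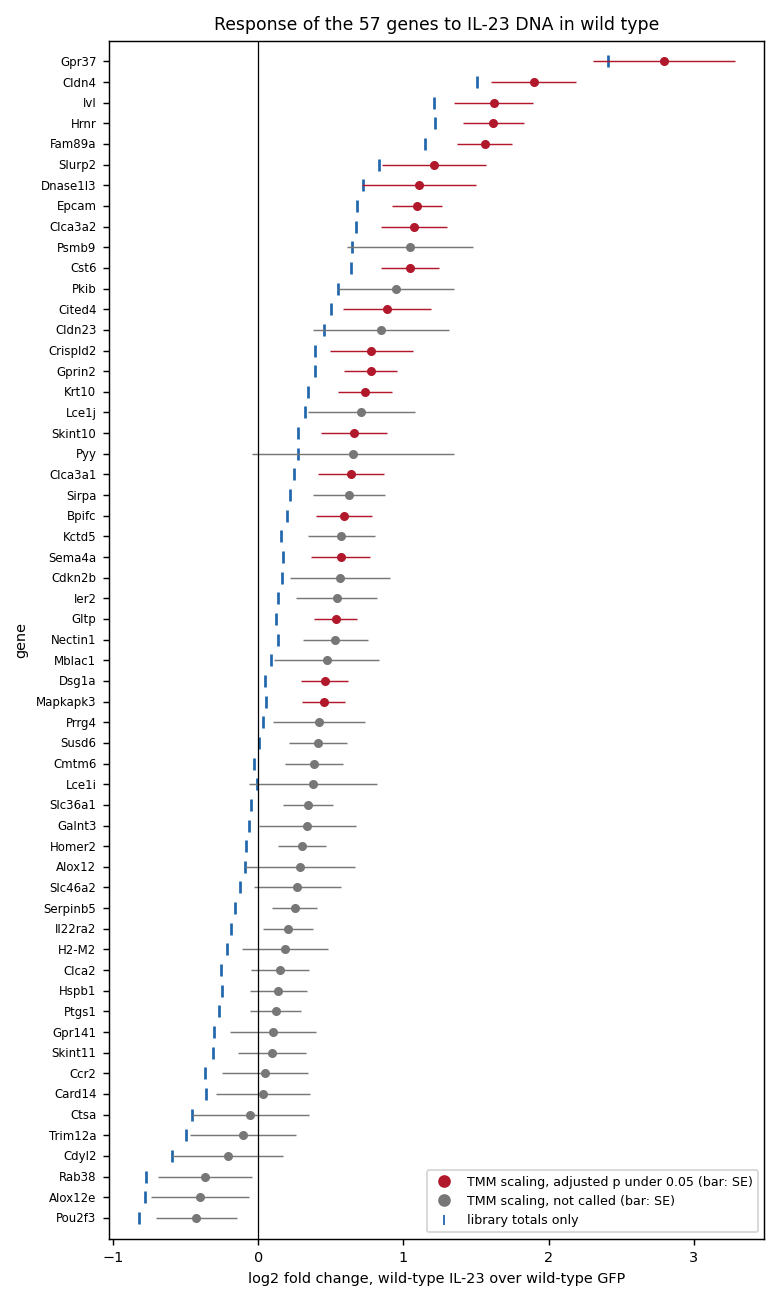
Log2 fold change of each of the 57 genes in wild-type IL-23 over wild-type GFP with TMM scaling (points, bars are SE; red where the edgeR adjusted p was under 0.05) and on library totals (blue ticks), n = 3 libraries a group. Gpr37, Cldn4, Ivl, Hrnr and Fam89a stand at 1.56 or more with TMM, 6 genes lie below 0, and each blue tick lies left of its point by about the same amount.

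The scaling also bears on which genes meet the choice. On TMM-scaled CPM, 65 genes met the same conditions, of which 35 were among the 57. The 22 genes lost included Hrnr, Ivl, Dsg1a, Cldn4, Epcam, Cst6, Psmb9 and Ccr2: 11 fell under the fold of 1.5 alone, 5 gained an overlap alone and 6 both. Hrnr, Ivl, Cldn4 and Epcam were among those that gained an overlap. Their groups, given above as not overlapping, were thus apart on library totals and not on TMM-scaled CPM. The Mdl-1-/- mean remained above both wild-type means for all 57 genes, with ratios from 1.33 to 7.15. In edgeR, 29 of the 57 were called higher in Mdl-1-/- IL-23 than in wild-type IL-23 and 54 than in wild-type GFP, beside the 7.58% and 10.2% of all genes given above. These 2 comparisons share the Mdl-1-/- libraries and are the ones that chose the genes, so nothing is read from these counts.

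By position, 8 of the 57 genes (14.0%) lie on chromosome 3, which holds 5.72% of the 8746 genes, and 6 (10.5%) on chromosome 11, which holds 8.10%. The 8 are Sema4a, Ivl, Lce1i, Lce1j and Hrnr, the last 4 in or beside the epidermal differentiation complex, and Clca3a1, Clca3a2 and Clca2. There were 5 pairs of neighbouring genes of the set under 500 kb apart. Between Ivl and Lce1i, 203 kb apart, lie 13 protein-coding genes outside the set. Among these, 2210017I01Rik and Gm38119 were not open to the choice because of their names. No gene of the set lay within 10 Mb of Clec5a, and the only one on its chromosome 6 was Gpr37, at 14.9 Mb.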

How the data were processed

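The deposited tables hold the authors' raw counts per Ensembl gene; per the submitters' processing notes, STAR 2.7.0a, featureCounts and edgeR were used. They name the build GRCh38.p6, a name of the human genome, for tables with mouse identifiers, which leaves the build uncertain. The annotation release, the strand setting and the handling of multiply matching reads were not stated. Symbols and positions were taken by identifier from GENCODE M21 (GRCm38); 29 genes had no entry. Libraries that stand in several tables had identical values (0 differed). The authors' own edgeR comparisons were not used.

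The genes and the lists were chosen with earlier results of these data known. CPM are counts over the library total. Tests used edgeR 4.0.16 in R 4.3.3: filterByExpr (minimum count 10, minimum total 15; 13807 genes), TMM, 1 model of 3 group means over 9 libraries (6 residual degrees of freedom), robust quasi-likelihood F-tests, two-sided, Benjamini-Hochberg adjusted p under 0.05. The fits were tested on simulated counts. Alternatives were DESeq2 1.42.0, its size factors, upper-quartile scaling, library totals, no filter, a replicate block and each library left out. Genes were named by ratio (15), level (8), lists, the size of the wild-type response, the edges of the fold and shared families or neighbourhood; others were chosen after their values were seen. The number of counts limits low genes: a library total of 3776188 to 5605713 gives few counts to a gene at 5 CPM.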

Additional observations from a re-analysis of the deposited data

How the results depend on the processing

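With library totals, an alternative chosen after seeing the data, the 57 genes called higher in wild-type IL-23 than in wild-type GFP numbered 8 (14.0%, against 11.8% of all tested genes) and those lower 1, beside 21 (36.8%, against 22.9%) and 0 with TMM; with upper-quartile scaling 12 were higher (21.1%, against 17.9%). Leaving out 1 library gave 12 to 22 higher (12 without wild-type IL-23 replicate 2, or 21.1%, against 18.7% of all tested genes) and 0 to 2 lower (2 without GFP replicate 2). DESeq2 lost 0 of the 21 calls, and its size factors in edgeR 0. Correlations between libraries of different groups were -0.0863 to 0.23 for the same replicate number and -0.214 to 0.175 for different numbers. These ranges overlap and do not settle whether the numbers pair the libraries. With the replicate block 25 of the 57 were called higher and 0 lower. Genes called with the block numbered 6261 in wild-type IL-23 against GFP, beside 6167 without it. They numbered 2800 in Mdl-1-/- against wild-type IL-23, beside 2440, and 2682 in Mdl-1-/- IL-23 against GFP, beside 2359. Leaving out 1 library gave 4622 to 6352, 1128 to 2802 and 1340 to 2580. For Mdl-1-/- against wild-type IL-23 the low values came without Mdl-1-/- replicate 1 (1166) or 3 (1365) or wild-type IL-23 replicate 2 (1128) or 3 (1300), and against GFP without Mdl-1-/- replicate 2 (1365) or GFP replicate 3 (1340). The share of calls that were higher was 42.9% with TMM, 53.2% with upper quartile and 66.8% on totals against wild-type IL-23, and 59.4%, 43.7% and 26.4% against GFP. Of the suprabasal list, 3 to 7 were called higher against wild-type IL-23 (3 without Mdl-1-/- replicate 1 or 3 or wild-type IL-23 replicate 2). The set held 15 genes at a fold of 2, 46 at 10 CPM, 66 at 2 CPM, and 55 to 103 with 1 library left out (96 without Mdl-1-/- replicate 1, 103 without replicate 2). The causes were not tested.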
